A study of Mus musculus with 72 samples.

Results

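The cytosolic mRNA levels of mouse embryonic stem cells after 120 min of labeling with 4-thiouridine (4sU) were compared with those after 20 min. The comparison rests on 4 of the 72 samples of the series, the cytosolic libraries of replicates 3 and 4 at both times, with 2 libraries per side. They were chosen by fraction, time and replicate number from the sample labels, not by any measured value. All came from E14TG2a cells, a feeder-independent line kept on gelatin in serum-containing "2i + LIF" medium, which holds inhibitors of GSK3 and MEK, and each replicate was passaged and labeled on its own. All cells were scraped in cycloheximide, an inhibitor of translation elongation, which was also in the lysis buffers, and the cytosol is the supernatant after the plasma membrane was opened with digitonin. The labels give 500 µM 4sU for the 20 min libraries and 100 µM for the 120 min libraries. The study's methods describe a series at 500 µM that also runs past 60 min and a separate series at 100 µM, without replicate numbers, and by these methods replicates 3 and 4 are read as 500 µM at both times.

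The deposited conversion rate, the probability that a T in labeled RNA is read as C, bears on this difference. In the cytosol of replicates 3 and 4 it was 2.69% and 3.02% at 20 min and 8.83% and 11.4% at 120 min. Replicates 5 and 6, which carry the same label of 100 µM, had 3.26% and 3.36% at 120 min. The replicate 5 and 6 rates were thus below those of replicates 3 and 4 at the same time and under the same label. Dose and pair of replicates cannot be told apart in any comparison of the pairs, and if the labels hold, dose and time cannot be told apart between 20 and 120 min.

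4sU is a uridine analog that cells take up and build into new RNA, where a chemical step turns it into a base read as C. It lets new RNA be told from old RNA, but at high doses and long times it can disturb ribosomal RNA processing and set off a nucleolar stress that stabilizes p53, a transcription factor whose targets halt the cell cycle or start apoptosis. Total mRNA levels are therefore the usual check of a labeling series. Because the cytosol receives mRNA from the nucleus and loses it by decay, a level there can change through synthesis, export, decay or the yield of the fraction, and in bulk samples fewer cells and less RNA per cell cannot be told apart.

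The 4 libraries held 20474244 to 27632874 counts on genes. Levels are given as CPM, counts scaled to the normalized library size and not divided by gene length. The 8 markers of embryonic stem cells were all detected in each library, with summed levels of 8417 to 9578 CPM, and none was called. Of 7 markers of feeder fibroblasts, Col3a1, Lum and Postn were at 0 in all 4 libraries, and the sum of the 7 was 0.219 to 0.802 CPM. A gene list of 12 such markers gave another picture. Its 4 tested members summed to 209 and 191 CPM at 20 min and to 238 and 261 CPM at 120 min. Their median log2 fold change was 0.30, with 0 called. The 20 min library of replicate 4 stood apart in the sum of mitochondrially encoded genes, 672 CPM against 332 to 361 CPM in the other 3.

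Few cytosolic RNAs passed the test, and those that rose were mostly of another kind than those that fell. Of 16284 genes tested, 170 (1.04%) passed an adjusted p of 0.05 and an absolute log2 fold change of 0.5 in edgeR's quasi-likelihood test, with 81 (0.497%) higher and 89 (0.547%) lower at 120 min. The 81 were 16 protein-coding genes, 63 processed pseudogenes and 2 other genes, whereas the 89 were 77 protein-coding genes, 1 processed pseudogene and 11 other genes. Before adjustment, 2124 genes had a p under 0.05. The median log2 fold change of all genes tested was 0.00.

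The number of calls rests on the libraries and genes in the fit. The spread was estimated over all 18 cytosolic libraries, and with the 4 libraries alone edgeR called 0 genes, with 888 at an unadjusted p under 0.05. Without replicate 3 or 4 at 20 min it called 26 or 32 genes, and without replicate 3 or 4 at 120 min 653 or 25. The count was thus lowest without replicate 4 and highest without replicate 3 at 120 min. DESeq2 called 296 genes, 161 of them among the 170. When protein-coding genes alone were tested, a choice made after seeing the calls, 37 passed, with 10 higher and 27 lower, all among the 170.

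**Figure D1:**
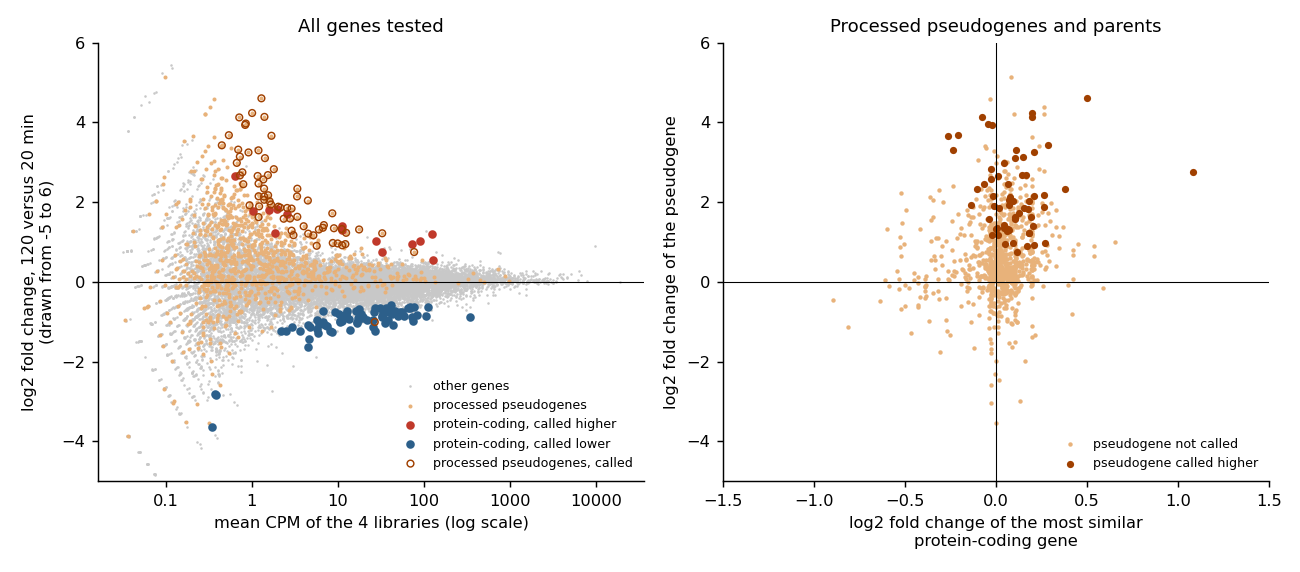
Left, log2 fold change between 120 and 20 min against the mean CPM of the 4 libraries (log scale), with one point per gene. The 63 processed pseudogenes called higher lie mostly at low levels, with a median of 0.633 CPM at 20 min. Right, log2 fold change of each processed pseudogene against that of its most similar protein-coding gene.

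Of the 16 protein-coding genes that rose, 4 were listed p53 targets. Cdkn1a, which encodes the cyclin-dependent kinase inhibitor p21, was at 60.7 and 57.5 CPM at 20 min and at 118 and 120 CPM at 120 min. The level was 2.02-fold higher at 120 min (log2 fold change 1.02, SE 0.15, edgeR adjusted p = 0.00386). Btg2, an antiproliferative protein that recruits deadenylases to mRNA, was at 49.4 and 50.5 CPM at 20 min and at 90.4 and 103 CPM at 120 min (log2 fold change 0.95, SE 0.14, adjusted p = 0.00386). Both calls survived 3 of the 4 fits that left out 1 library, and adjusted p rose to 0.052 for Cdkn1a without replicate 4 at 20 min and to 0.054 for Btg2 without replicate 3 at 20 min.

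Plk2, a stress-responsive polo-like kinase, went from 85.1 and 65.7 CPM to 177 and 169 CPM (log2 fold change 1.20, SE 0.21, adjusted p = 0.0106). Bbc3, which encodes the proapoptotic BH3-only protein PUMA, went from 22.8 and 25.2 CPM to 33.8 and 47.2 CPM (log2 fold change 0.76, SE 0.17, adjusted p = 0.0374). For Bbc3 the 120 min libraries were farther from each other than the 20 min libraries were. Bbc3 lost its call with a stricter filter on low counts (5 CPM in 2 libraries) and with protein-coding genes alone. Plk2 kept its call in 2 and Bbc3 in 1 of the 4 fits that left out 1 library.

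Cdkn1a and Plk2 stayed nearer to their 20 min level at the times between. Cdkn1a was at 72.0 and 65.9 CPM at 40 min and at 63.7 and 74.0 CPM at 60 min. Plk2 was at 105 and 76.98 CPM at 40 min and at 112 and 77.5 CPM at 60 min. For both, all 4 libraries of the times between lay under both 120 min libraries. No gene was called at 40 min against 20 min (0%, with 568 genes at an unadjusted p under 0.05) or at 60 min against 20 min (0%, with 1003) by edgeR, nor by DESeq2, and both comparisons use the same 20 min libraries as the 120 min comparison. Between 60 and 120 min in replicates 3 and 4, edgeR also called 0 genes (0%), with 1940 at an unadjusted p under 0.05 and a smallest adjusted p of 0.0512.

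**Figure D2:**
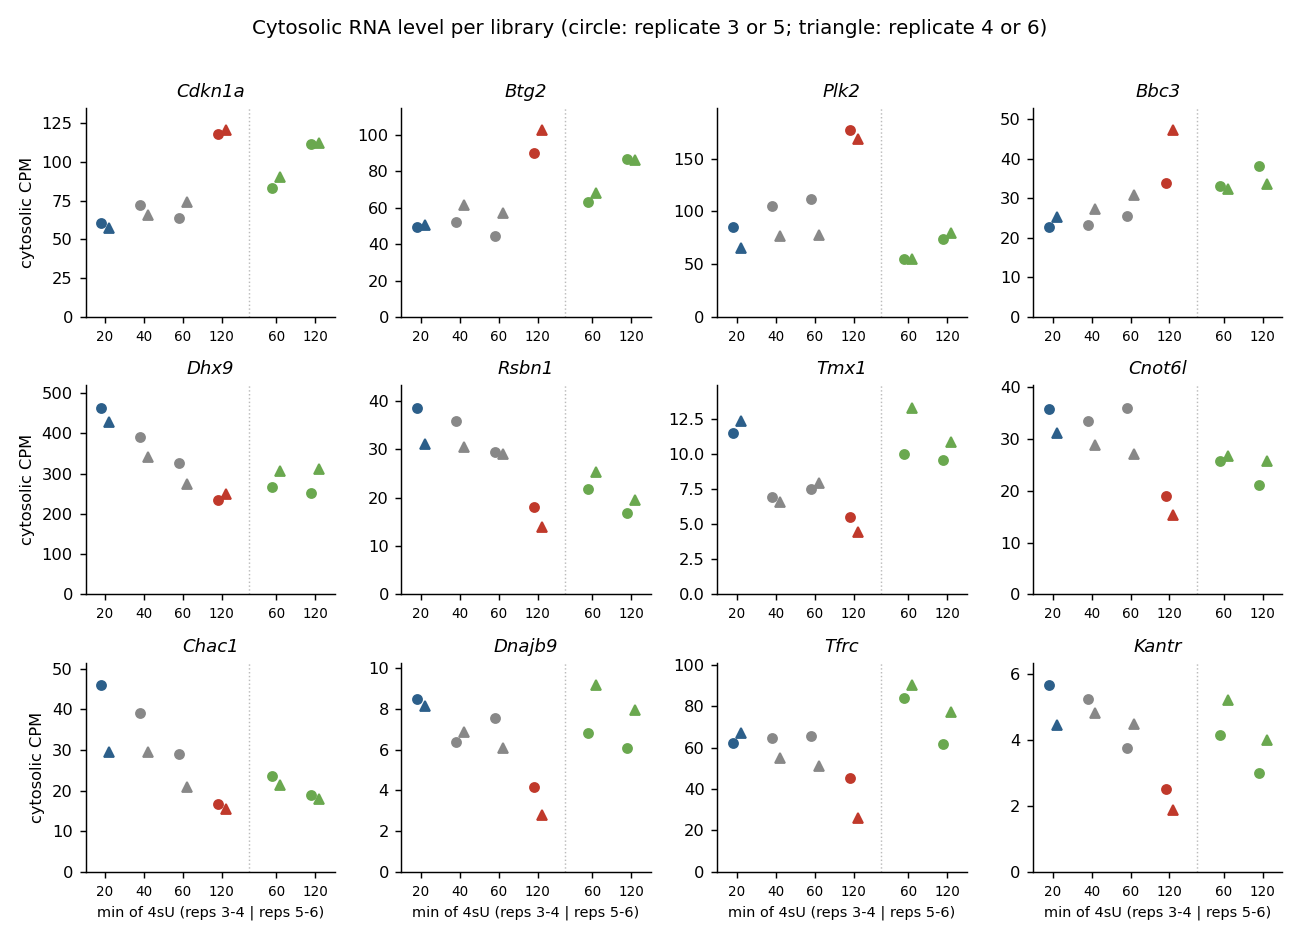
Cytosolic CPM of named genes in each library against min of 4sU, with replicates 3 and 4 (20 to 120 min) on the left of each panel and replicates 5 and 6 (60 and 120 min) on the right. Cdkn1a, Btg2 and Plk2 were highest in the 120 min libraries of replicates 3 and 4 within that pair, and Dhx9 and Rsbn1 were lowest there.

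Most listed p53 targets were not called. Of 38 tested, 4 were called higher and 0 lower, against 0.497% of all genes called higher, and their median log2 fold change was 0.09 beside 0.00 over all genes. By direction alone, 23 were over 0 and 15 under 0. At an unadjusted p under 0.05 in edgeR, 9 were higher and 1 lower, beside 833 and 1291 of all 16284 genes. Of the members not called, Tnfrsf10b and Rrm2b had the smallest adjusted p in edgeR. Their log2 fold changes were 0.62 (adjusted p = 0.103) and -0.92 (adjusted p = 0.113). The next 3 genes were picked as standard p53 targets after their values were seen. Mdm2, the ubiquitin ligase that restrains p53, had a log2 fold change of 0.31 (adjusted p = 0.462), and Bax, an effector of apoptosis, had 0.05 (adjusted p = 0.919). Ccng1, a cyclin that is a standard p53 target, had -0.01 (adjusted p = 0.986).

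The promoter of Cdkn1a is shown because p53 binds such sites and the gene was among the called targets. In RefSeq promoters from 250 bases before to 50 bases after the start, the p53 consensus decamer, which reads the same on both strands, occurred at least once in 11 of 29 listed p53 targets with a promoter and in 9.55% of all 27025 genes with one. Of the 4 targets called, only Cdkn1a held one. A pair of decamers with at most 13 bases between them occurred in 0.074% of these genes. Promoters were found for 8 of the 16 protein-coding genes called higher and 65 of the 77 called lower. At least 1 decamer occurred in 1 of these 8 and in 5 of these 65 (7.69%), Dhx9 and Birc2 among the 5. Of all protein-coding genes tested with a promoter, 8.20% held one. Among the called genes with a promoter, only Cdkn1a held such a pair of decamers. The stretch lies at chr17:29090866-29090957 on the plus strand of GRCm38.p6, upstream of the gene, and capitals mark both decamers.
Cdkn1a: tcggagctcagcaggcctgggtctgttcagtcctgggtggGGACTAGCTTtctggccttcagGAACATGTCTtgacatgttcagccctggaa
A match describes letters, not binding.

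The other named genes that rose had no shared list. Rtl10, a retrotransposon-derived gene, was at 5.48 and 6.71 CPM at 20 min and at 13.7 and 18.6 CPM at 120 min (log2 fold change 1.41, SE 0.21, adjusted p = 0.00386). Enc1, an actin-associated Kelch protein, was at 107 and 103 CPM at 20 min and at 145 and 162 CPM at 120 min (log2 fold change 0.55). Zfp750, a zinc finger factor of epidermal differentiation, and Irf2bp2, a transcriptional corepressor, had log2 fold changes of 1.31 and 1.01.

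Baat, a bile acid conjugating enzyme, and Lsmem1 had no count in either 20 min library. Baat had 16 and 20 counts at 120 min, which against a floor of 3 counts per library is at least 5.61-fold higher. Lsmem1 had 8 and 20 counts, which is at least 4.11-fold higher. Both lost their call in 3 of the 4 fits without 1 library. Ccdc177 and Tmem40 had log2 fold changes of 2.64 and 1.23 at levels under 3 CPM in every one of the 4 libraries, and they lost their call in all 4 of those fits and with protein-coding genes alone.

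The protein-coding genes that fell were more numerous than those that rose. Their median log2 fold change was -0.89, with a median level of 23.3 CPM at 20 min. Dhx9, a nuclear RNA helicase, was at 464 and 428 CPM at 20 min and at 234 and 249 CPM at 120 min. The groups did not overlap, which follows in part from calling the gene on these same libraries. The level of Dhx9 was 1.85-fold higher at 20 min (log2 fold change -0.89, SE 0.13, edgeR adjusted p = 0.00386). Of the genes named here, Dhx9 and Birc2 kept their call in each of the 4 fits that left out 1 library. At 40 and 60 min Dhx9 lay between, at 390 and 340 CPM and at 327 and 275 CPM.

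Rsbn1, which encodes round spermatid basic protein 1, went from 38.6 and 31.1 CPM to 18.1 and 13.9 CPM (log2 fold change -1.13, SE 0.17, adjusted p = 0.00386). Tmx1, a thioredoxin-like protein of the endoplasmic reticulum (ER) membrane, went from 11.5 and 12.4 CPM to 5.52 and 4.43 CPM (log2 fold change -1.27, SE 0.19, adjusted p = 0.00386). Tmx1 was already low at 40 min, at 6.93 and 6.60 CPM, whereas Rsbn1 was at 35.9 and 30.5 CPM at that time.

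Genes of mRNA tail metabolism and of signaling were also among the 12 named. Cnot6l, a catalytic deadenylase subunit of the CCR4-NOT complex, went from 35.8 and 31.2 CPM to 19.0 and 15.4 CPM (log2 fold change -0.97, edgeR adjusted p = 0.0106). In the list of 27 mRNA decay and deadenylase genes, it was the only one called lower and Btg2 the only one called higher. The median of that list was 0.10, with 16 over 0 and 11 under 0. Papolg, a poly(A) polymerase, went from 53.5 and 40.6 CPM to 26.8 and 19.7 CPM (log2 fold change -1.02, adjusted p = 0.0113). Birc2, an inhibitor of apoptosis protein, had a log2 fold change of -0.75. Map3k2, a MAP kinase kinase kinase, went from 24.2 and 19.8 CPM to 11.9 and 10.2 CPM (adjusted p = 0.00555). The other 5, Chic1, Ric3, Arl6ip6, Tmed5 and Fam13b, lay between -1.43 and -0.72.

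Kantr, a transcript annotated as protein-coding in the table used and named by the study in connection with 4sU, was at 5.67 and 4.45 CPM at 20 min. It was at 5.26 and 4.82 CPM at 40 min, at 3.77 and 4.49 CPM at 60 min and at 2.51 and 1.87 CPM at 120 min. The 120 min libraries were the lowest of the 8, and the log2 fold change was -1.22 (SE 0.24, adjusted p = 0.0194). Tug1, a long noncoding RNA annotated as antisense and named here after its values were seen, went from 46.1 and 57.3 CPM to 30.2 and 24.02 CPM (log2 fold change -0.93, SE 0.18, adjusted p = 0.0158).

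In the gene lists, calls were few, as over all genes tested, of which 1.04% were called. Of 27 lists, 22 held none, but at that share lists of this size often hold none. The lists of stem cell factors, ribosomal proteins, heat shock genes and DNA repair genes were among the 22. In the list of 22 ER chaperones and unfolded protein response genes, only Dnajb9, an ER co-chaperone, was called. It went from 8.51 and 8.16 CPM to 4.15 and 2.79 CPM (log2 fold change -1.28, SE 0.25, adjusted p = 0.0185), and it kept its call in 1 of the 4 fits without 1 library, the one without replicate 3 at 120 min. The median of the list was -0.32 in the cytosol, with 19 of 22 under 0, beside 0.01 in nuclear, 0.01 in membrane and -0.07 in whole-cell RNA. Hspa5, the main ER chaperone, was at 39.7 and 55.4 CPM and then at 33.1 and 29.9 CPM (log2 fold change -0.59, adjusted p = 0.103).

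In the list of integrated stress response genes, Chac1, a glutathione-degrading enzyme, was the only call, from 46.0 and 29.6 CPM to 16.6 and 15.5 CPM (log2 fold change -1.24, SE 0.28, adjusted p = 0.0453). Trib3, a pseudokinase induced in the same response, had a log2 fold change of -0.56 (adjusted p = 0.215), and the median of the 28 genes was 0.06. Among 22 membrane and secretory mRNAs, the only call was Tfrc, the transferrin receptor, from 62.4 and 67.0 CPM to 45.3 and 26.2 CPM (log2 fold change -0.86, adjusted p = 0.0497). Chac1 and Tfrc both lost their call under other scalings, with adjusted p of 0.051 to 0.062, and Chac1 lost it in all 4 and Tfrc in 3 of the 4 fits without 1 library. The median of the membrane and secretory list was -0.20, with 15 of 22 under 0, beside 0.26 in nuclear, -0.01 in membrane and 0.03 in whole-cell RNA.

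Some lists also differed between the 20 min libraries. The 7 tested mitochondrially encoded genes had a median log2 fold change of -0.57 with 0 called, and mt-Nd1 was at 112 and 219 CPM at 20 min and at 84.9 and 85.8 CPM at 120 min. In nuclear, membrane and whole-cell RNA their medians were 0.34, 0.01 and 0.10. At 20 min, replicate 4 exceeded replicate 3 by a median log2 ratio of 0.89 for mitochondrial genes, 0.25 for the membrane list and 0.17 for the ER list. The part of this library in the medians of the lists was not tested. Against replicate 3 at 20 min alone, the 120 min libraries of replicates 3 and 4 had medians of -0.11 and -0.19 for the mitochondrial genes, -0.06 and 0.00 for the membrane list, and -0.07 and -0.34 for the ER list. Against replicate 4 at 20 min alone, the medians were -0.74 and -0.88, -0.35 and -0.28, and -0.39 and -0.53 in the same order.

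The network of pluripotency factors, which keeps these cells self-renewing, gave no call. Of 28 factors 0 were called by edgeR, beside 1.04% of all genes tested, a share at which 28 genes often hold no call. By edgeR 2 of the 28 were at an unadjusted p under 0.05, and the median log2 fold change of the list was 0.02. Sox2 had a log2 fold change of -0.40 (adjusted p = 0.279), Klf4 -0.22 (adjusted p = 0.41) and Fgf4 -0.52 (adjusted p = 0.123). Heat shock genes had a median of 0.16 with 19 of 20 over 0 and 0 called, and Hsp90ab1, a cytosolic chaperone, had 0.26 (adjusted p = 0.35). Among 49 cytosolic ribosomal protein genes the values lay between -0.07 and 0.19.

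**Figure D3:**
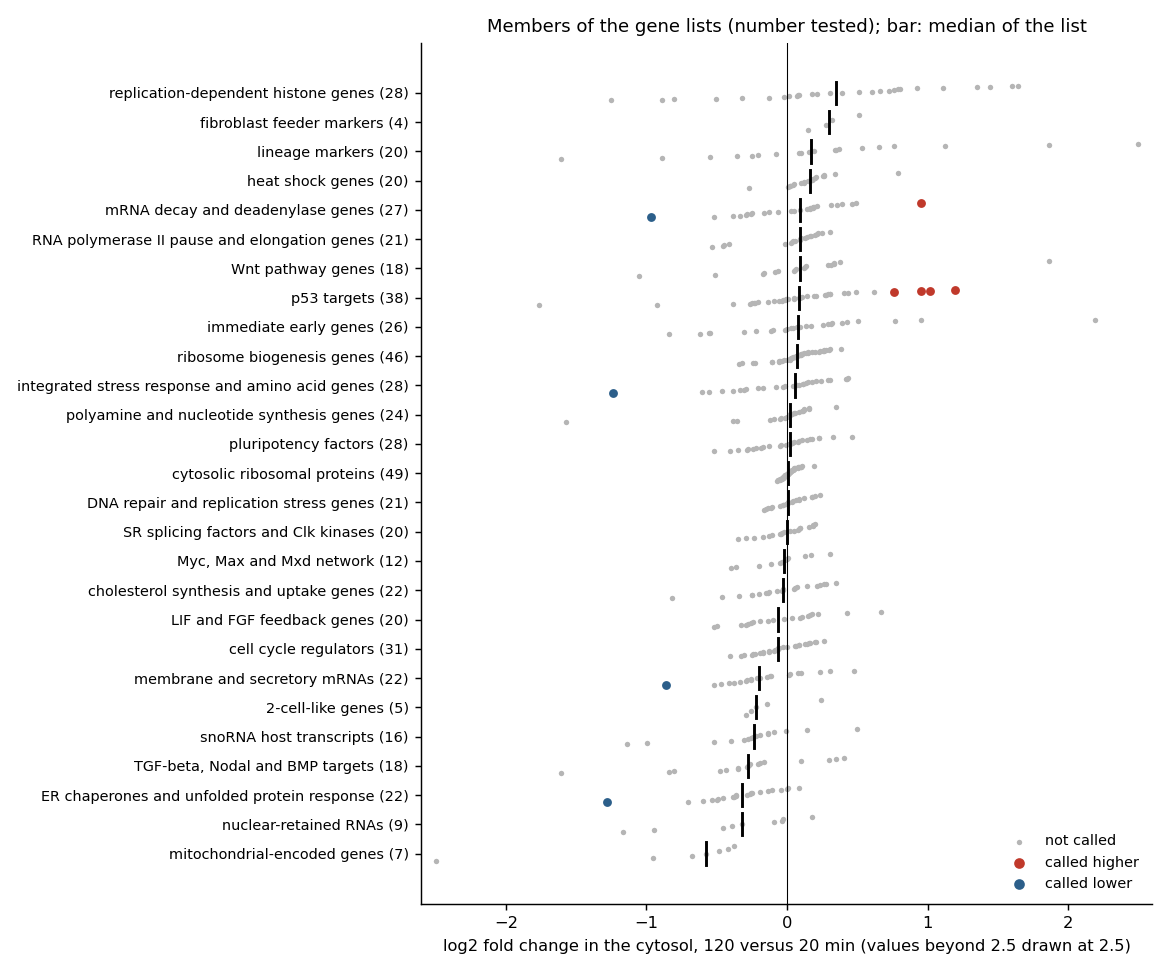
Log2 fold change between 120 and 20 min in the cytosol of each tested member of each gene list, with the number tested in parentheses and values past the axis drawn at its ends. Called members are larger and colored, and the 4 called p53 targets are on the right and Chac1, Cnot6l, Dnajb9 and Tfrc on the left.

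The genes called in replicates 3 and 4 were next looked at in replicates 5 and 6, which share no library with them. Their 120 and 60 min libraries gave 0 calls by edgeR and by DESeq2 (0%), with 209 genes in edgeR at an unadjusted p under 0.05. Of the 77 protein-coding genes called lower, 74 were under 0 there, beside 51.4% of protein-coding genes not called, and their median was -0.24. Of the 16 called higher, 13 were over 0 there. In pairings of single libraries of replicates 5 and 6, the 77 had median log2 ratios of -0.40 to -0.06, with 52 to 74 under 0. Replicate 4 against replicate 3 at the same time gave -0.27 to -0.11, with 55 to 66 under 0. Negative medians thus also occurred between replicates of 1 time, with -0.27 in the 120 min libraries on which the 77 were called. The median of -0.24 is another measure, fitted over 2 libraries per side in replicates 5 and 6, so it cannot be placed within that range. Cdkn1a was at 83.4 and 90.1 CPM at 60 min and at 111 and 112 CPM at 120 min (log2 fold change 0.37, SE 0.15, adjusted p = 1.00), and Dhx9 was at 267 and 307 CPM and then at 252 and 311 CPM (log2 fold change -0.03). The test of the difference between the pairs, 120 against 60 min, called 0 genes by edgeR (0%) in the fit without a replicate block, with 930 at an unadjusted p under 0.05.

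In other fractions of the same cultures, most of the called genes had the same sign. Of the 77 lower genes, 74 were under 0 in nuclear RNA, 76 in membrane RNA and 76 in whole-cell RNA. Cdkn1a had log2 fold changes of 0.73, 0.76 and 0.56 in these fractions, and Plk2 had 1.54, 0.99 and 1.33. Tests of the difference between fractions called 0 of 18706 genes by edgeR for cytosol and nucleus (0%), with 1360 at an unadjusted p under 0.05. For cytosol and membrane they also called 0 (0%), with 758. With a replicate block by culture, a fit added after seeing the data in which the fractions of a culture share a term, they called 18 (0.0962%) and 0 genes. Of the 18, 1 was among the 170, Nptn, an immunoglobulin-like membrane protein. Kantr had a log2 fold change of -1.97 in the nucleus and -0.60 in the membrane fraction, and its difference between cytosol and nucleus was 0.79 (adjusted p = 0.728).

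The largest class of RNAs called higher was processed pseudogenes, intronless copies of mRNAs that were written back into the genome. Of 1008 tested in the main class of the annotation, 60 were called higher (5.95%) and 0 lower. Their median log2 fold change was 0.48, beside -0.01 for 13509 protein-coding genes. The rise was not particular to the cytosol. In nuclear, membrane and whole-cell RNA the medians of the pseudogenes tested there were 0.97, 0.59 and 0.62. Protein-coding genes had 0.03, -0.02 and -0.01 in the same order. Counting the transcribed class too, 63 were called higher, and 62 of these aligned to a protein-coding parent with a median identity of 98.1%. The parents had a median of 899 CPM at 20 min, and the pseudogenes had a median of 0.633 CPM. The parents had a median log2 fold change of 0.09, and 0 of 62 was called.

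Because the copies are so alike, 3 pairs are printed to show how few bases set them apart. They were chosen after their values were seen. Each window of 60 bases, from GRCm38, holds the most differences in the aligned coding sequence of the pair, given in the sense of the parent mRNA, and capitals mark the bases that differ. Positions are counted from 1 at the 5′ end of the window, with the parent's base first.
Hspd1: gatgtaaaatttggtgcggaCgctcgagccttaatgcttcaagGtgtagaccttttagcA
Hspd1-ps3: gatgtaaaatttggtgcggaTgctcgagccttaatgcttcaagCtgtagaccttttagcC
Actg1: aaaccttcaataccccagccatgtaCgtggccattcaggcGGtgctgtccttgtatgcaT
Actg-ps1: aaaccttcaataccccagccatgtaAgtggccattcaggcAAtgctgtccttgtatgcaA
Gapdh: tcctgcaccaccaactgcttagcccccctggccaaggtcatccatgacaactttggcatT
Gm12033: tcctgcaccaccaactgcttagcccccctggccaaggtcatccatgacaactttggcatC
The substitutions were C21T, G44C and A60C for Hspd1-ps3, C26A, G41A, G42A and T60A for Actg-ps1, and T60C for Gm12033. The Hspd1-ps3 window lies at chr11:41498821-41498880, that of Actg-ps1 at chr8:46229366-46229425 and that of Gm12033 at chr11:20335510-20335569.

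Hspd1-ps3, a copy of the mitochondrial chaperonin Hspd1, was at 4.11 and 3.90 CPM at 20 min and at 14.3 and 12.2 CPM at 120 min. The log2 fold change was 1.72 (SE 0.23, edgeR adjusted p = 0.00386), while Hspd1 had 0.12 (adjusted p = 0.824). Gm12033, a copy of the glycolytic enzyme gene Gapdh, was at 0.0473 and 0.25 CPM and then at 2.30 and 3.02 CPM (log2 fold change 4.14, SE 0.57), while Gapdh had 0.20 (adjusted p = 0.491). Actg-ps1, a copy of the gamma actin gene Actg1, had a log2 fold change of 3.14 (SE 0.67) and Actg1 one of 0.15.

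With parents this alike and this much more abundant, the counting could split reads between copy and parent, so the values of the pseudogenes are uncertain. Reads aligned at several places, 25.5% to 26.9% in the 4 libraries, were counted to no gene. The share of counts on processed pseudogenes was 0.816% and 0.818% at 20 min, 0.820% and 0.814% at 40 min, 0.861% and 0.872% at 60 min, and 0.936% and 0.917% at 120 min. It was flat over the first 2 times and higher in both libraries of each later time. In replicates 5 and 6 it was 0.750% and 0.753% at 60 min and 0.867% and 0.820% at 120 min. The base T in the parent met a C in the pseudogene in 11.2% of all substitutions of the called pseudogenes and in 11.01% of those of the pseudogenes not called. Of the 62 called with a parent, 6 held no substitution at all in the aligned bases, beside 57 of the 949 not called with a parent. Whether reads of converted parent RNA were placed on the copies was not tested.

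The genes that fell were richer in T than genes not called, and both those that fell and those that rose held more new RNA, in values examined after the calls were seen. The transcripts of the 77 had a median of 29.6% T, beside 24.1% for protein-coding genes not called, and 76 of 77 were above that median, as were 8 of the 16 genes called higher. The merged exons of the 77 were also longer, with a median of 7213 bases. Genes not called had 4340 bases, and the 16 called higher had 2512. The share of new to total mRNA at 120 min, which is the share of T read as C divided by the conversion rate, had a median over the 73 genes with enough T counts of 57.6% in replicate 3 and 57.6% in replicate 4. Genes not called had 23.1% and 23.5%. In replicates 5 and 6 the lower genes had 71.6% and 80.1% and the others 37.5% and 36.9%. The 13 genes called higher with enough T counts had 95.3% and 89.2% in replicates 3 and 4 and 105% and 99.5% in replicates 5 and 6, above those of the lower genes, and the ratio can pass 100% because it is an estimate. Protein-coding genes were cut into 9 classes by T percentage and by the new share in replicates 5 and 6, each in 3 equal parts. For 120 against 20 min in replicates 3 and 4, the class highest in both held 62 of the 73 lower genes and had a median log2 fold change of -0.31, and the class lowest in both held 0 and had 0.11.

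The relation to T content was not alike in all libraries. In the 4 pairings of 1 library of 120 min with 1 of 20 min, the highest minus the lowest of 10 equal bins of genes by T percentage had median log2 ratios of -0.19, 0.13, -0.79 and -0.43. Replicate 4 against replicate 3 at the same time gave -0.35 to -0.61. The values between replicates of 1 time thus lay within the range of those between times. For the new share, the pairings gave -0.24, -0.39, -0.01 and -0.20, and replicate 4 against replicate 3 gave 0.13 to 0.23. The processed pseudogenes rose in each of the 4 pairings, by medians of 0.26 to 0.40, while replicate 4 against replicate 3 gave -0.07 to -0.11.

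**Figure D4:**
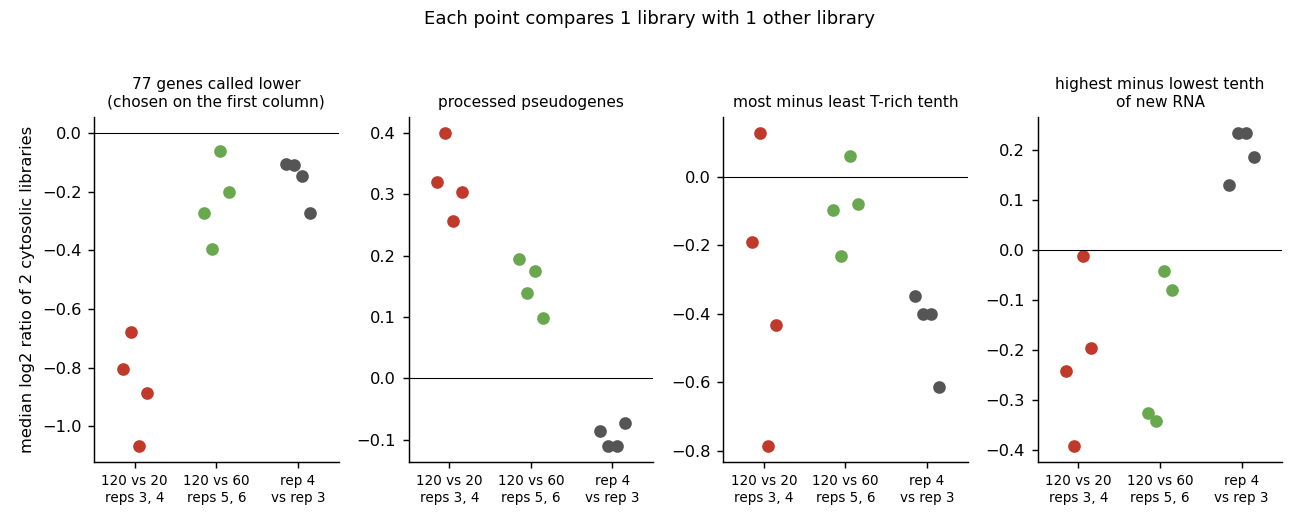
Median log2 ratio of 1 cytosolic library over another, for 120 over 20 min in replicates 3 and 4, 120 over 60 min in replicates 5 and 6, and replicate 4 over replicate 3 at the same time. The gradient over T percentage is -0.35 to -0.61 between replicates and -0.79 to 0.13 between times, in part from the same libraries. Processed pseudogenes lie above 0 between times and under 0 between replicates.

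**Figure D5:**
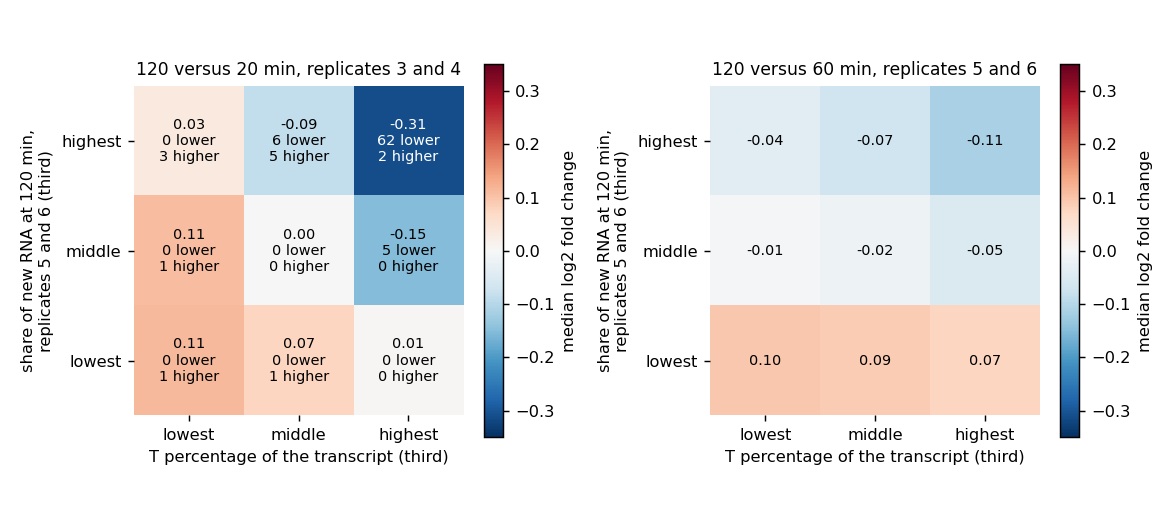
Median log2 fold change in 9 classes of protein-coding genes by the T percentage of the transcript and the new share in replicates 5 and 6, each in 3 equal parts, for 120 versus 20 min in replicates 3 and 4 (left, with the number of genes called) and 120 versus 60 min in replicates 5 and 6 (right). The class highest in both has medians of -0.31 and -0.11 and holds 62 of the 73 lower genes with both values.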

How the data were processed

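Stranded poly(A) libraries (paired reads) were made from fractions of the same cultures. The authors aligned reads with STAR 2.7.6 to mm10 and deposited read counts per gene made with HTSeq 0.11.1, without normalization, and RSEM 1.3.3 is also named in the submitters' processing notes. In the 4 libraries, reads in no gene (3.33% to 4.39%), in several genes (1.32% to 1.37%) and aligned at several places (25.5% to 26.9%) stand in rows of their own and were left out. The authors also deposited T and T2C counts per gene, and a conversion rate per library as a fraction. The aligner was set to permit many mismatches, and a read of a gene with a near copy enters the gene counts only where it aligns at 1 place.

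Genes passing filterByExpr were fitted with edgeR 4.0.16 (TMM, quasi-likelihood, Benjamini-Hochberg) in R 4.3.3, over 9 groups of 18 cytosolic libraries with 9 residual degrees of freedom, and differences between fractions over 54 libraries. Calls needed both adjusted p below 0.05 and a log2 fold change beyond 0.5 in either direction. The new share used genes with at least 400 T counts in each library. Ratios of single libraries used a pseudocount of 0.5 CPM. Pseudogene parents were found with BLAST+ 2.17.0, over at least 200 aligned bases and 80% identity. Gene models came from GENCODE M21 and promoters from RefSeq. The fit was tested on simulated data.

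Replicates are independently passaged cultures. Named genes are the 12 protein-coding genes with a symbol and the smallest p in each direction, up to 4 per gene list, of which a subset chosen after values were seen is printed, and Kantr and Cdkn1a. Baat and Lsmem1 are among these. The members and the 27 gene lists were chosen with earlier results of these data known. The comparisons by T content, new share, exon length, parents and single libraries were chosen after seeing the calls, and 6 measures were examined in 10 bins of genes. Alternatives were other scalings, filters, DESeq2 1.42.0, the replicate block, for fractions a block by culture, the 4 libraries alone and leaving out each library.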

Additional observations from a re-analysis of the deposited data

How the results depend on the processing

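Other scalings changed little, with 142 (RLE factors) and 163 (upper-quartile factors) genes called for 120 against 20 min, and the median of all genes moved to 0.02 and 0.04. Without a filter on low counts, 436 genes were called there, 34 at 60 against 20 min, 12 in replicates 5 and 6, 6 for the difference between pairs, 2 for cytosol against nucleus, 8 for cytosol against membrane, and 19 in the gene lists beside 8. With the stricter filter 88 genes were called, 5 of them in the lists, with DESeq2 296 and 14, with the 4 libraries alone 0 and 0, and with protein-coding genes alone 37 and 5. Testing fewer or more genes changes the adjustment by construction, and for the other settings the cause was not tested.

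Replicate numbers 3 and 4 are shared between times, and the deviations of same-numbered libraries correlated by 0.24 to 0.33 across 16284 genes, but with only 2 numbers they do not establish pairing. With the replicate block, 1044 genes were called for 120 against 20 min (353 higher, 691 lower, all 170 among them), 3 at 40 min, 131 at 60 min, 594 for the difference between pairs, 89 for cytosol against nucleus, 1 for cytosol against membrane and 36 in the lists. Fractions of 1 culture are paired, and with a replicate block by culture 18 genes were called for cytosol against nucleus and 0 for cytosol against membrane.

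Leaving out 1 library gave 25 to 653 calls for 120 against 20 min, 2 to 25 in the lists, 1 to 6 p53 targets called higher, 0 to 3 for cytosol against nucleus, 0 to 2 for cytosol against membrane, and 0 to 0 for the other comparisons, in which the lone library is assumed to vary like the other groups. The median new share of the lower genes, 66.6%, was 62.9% to 69.7%. Of the named genes, 3 changed direction in such a fit. The log2 fold change of mt-Cytb was -0.782 to 0.0415 and that of Malat1 -0.878 to 0.13, with the highest value without replicate 4 at 20 min, and that of Sall4 -0.0432 to 0.829, with the lowest without replicate 4 at 120 min. With the 4 libraries alone 0 genes were called, so all 28 of the 52 named genes that had a call lost it. The other 24 had no call in the main fit, and all 52 kept their direction. The 53 named genes of the next fits likewise include genes with no call to lose. Without replicate 3 or 4 at 20 min 20 or 17 of 53 lost their call, and without replicate 3 or 4 at 120 min 3 or 25.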

Other observations

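Other genes called lower in the cytosol at 120 min, chosen here after their values were seen, act in transcription, membrane proteins and growth signaling. Creb1, the cyclic AMP response factor, was at 64.7 and 54.05 CPM at 20 min and at 35.4 and 20.8 CPM at 120 min (log2 fold change -1.09, edgeR adjusted p = 0.0165), and in replicates 5 and 6 its change from 60 to 120 min was -0.15. The palmitoyltransferase genes Zdhhc17, Zdhhc20 and Zdhhc21 had log2 fold changes of -1.12, -1.09 and -1.01. Each of their 120 min libraries lay below each of their 20 min libraries, which follows in part from calling the genes on these same libraries. Npat, a coactivator of histone genes, had -0.85, Pcf11, a 3′ end processing factor, -0.99, and Rictor, a subunit of the mTOR complex 2, -0.71. These genes were not examined with single libraries left out.

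Of the 22 gene lists without a call in edgeR, the medians ran from -0.57 for mitochondrially encoded genes to 0.35 for the replication-dependent histone genes. The histone genes are poorly captured by poly(A) selection, and their summed level was 31.9, 42.4, 56.9 and 39.3 CPM in the 4 libraries in the order 20 min replicates 3 and 4 and 120 min replicates 3 and 4, so the groups overlapped. The list of nuclear-retained RNAs had a median of -0.32, with 8 of 9 tested under 0. Neat1 was at 18.3 and 32.3 CPM and then at 11.1 and 15.0 CPM (log2 fold change -0.95, edgeR adjusted p = 0.267), and Malat1 was at 61.9 and 125 CPM and then at 76.6 and 59.4 CPM. For Malat1 the groups overlapped, and the higher value was again in replicate 4 at 20 min. By annotated class, 144 snoRNA genes had a median log2 fold change of -0.67, with 2 called lower, and Snord70 had no count in either 120 min library.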
